A study of Mus musculus with 6 samples.

Results

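The heat shock and ER stress response was followed through 40 genes, chosen by symbol from the 21367 genes of the deposited table: 13 cytosolic heat shock genes, 3 mitochondrial chaperones and 24 genes of ER stress. One library was made from the kidney of each of 6 mice aged 7 weeks, 3 of them *Ptpn6*+/mev and 3 their wild-type littermates on a C57BL/6J background. *Ptpn6*+/mev mice are heterozygous for the viable motheaten allele of *Ptpn6*, which encodes the tyrosine phosphatase SHP-1, and the labels call their genotype an SHP1 knockdown. The allele is carried in every cell of the animal. In both groups the right kidney was removed, blood flow to the remaining kidney was stopped at its pedicle for 34 min, and that kidney was taken 24 h later, so every library comes from a kidney after ischemia-reperfusion injury (IRI) and the comparison is between genotypes after injury. Kidneys without IRI were not analysed here, and no value below measures the response to injury itself.

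Heat shock proteins are chaperones that hold or refold damaged proteins, and their genes are switched on by the transcription factor HSF1 when proteins unfold in the cytosol. Unfolded proteins in the endoplasmic reticulum (ER) are sensed by ATF6, IRE1 (*Ern1*) and PERK (*Eif2ak3*). ATF6 and the IRE1 product XBP1 induce ER chaperones and folding enzymes, while PERK slows translation and lets ATF4 induce *Ddit3*, *Trib3*, *Ppp1r15a* and *Asns*. Both responses are known to be engaged in tubular epithelium when blood supply to the kidney is interrupted.

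Positions are on GRCm38. Levels are given as FPKM, fragments scaled to transcript length and library size, and differences as log2 fold changes of *Ptpn6*+/mev against wild-type from the counts, with the standard error (SE) and the p-value of edgeR's quasi-likelihood test, adjusted over the 13036 genes tested by the Benjamini-Hochberg method. All 40 genes passed the filter on low counts, with 68 to 20910 counts per library, in libraries of 10271590 to 12361745 counts. None of the 40 differed at an adjusted p under 0.05, where 0.138% of all tested genes did, and their adjusted p-values ran from 0.159 to 0.999. At an unadjusted p under 0.05, 3 were higher in *Ptpn6*+/mev kidneys, where 5.53% of all tested genes were, and 4 were lower, where 6.71% were. In all 40 genes the 95% interval of the difference lay within 2-fold in either direction, the widest bounds being -0.93 and 0.81 on the log2 scale. By edgeR's exact test, which called 2.99% of all tested genes, and by DESeq2, which called 2.86% of its own set of 13362 genes, 1 of the 40 passed, *Hspb1*. Each library is 1 mouse, so these p-values measure the spread among 3 mice per group.

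**Figure D1:**
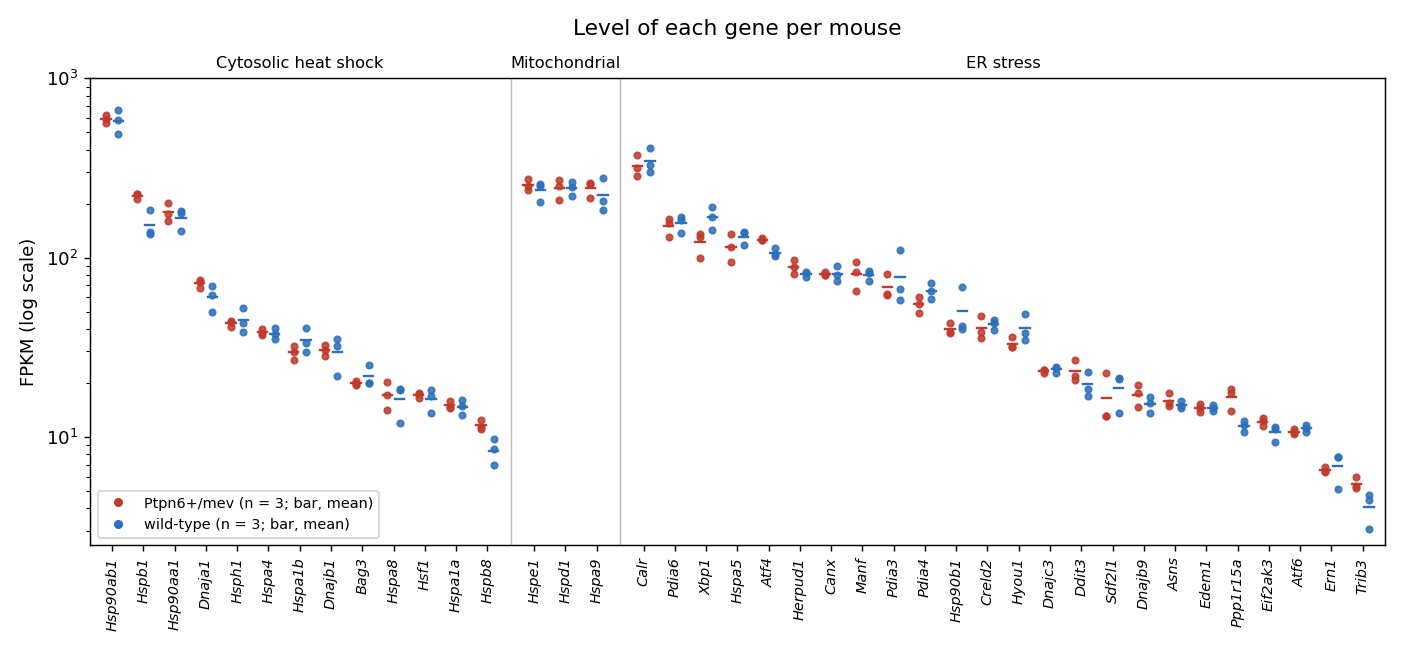
FPKM of each of the 40 genes (y axis, log scale) in every mouse, with *Ptpn6*+/mev mice in red, wild-type mice in blue and bars at the mean of 3 mice. The groups lie close together for most genes, while all 3 *Ptpn6*+/mev mice are above all 3 wild-type mice for *Hspb1*, *Hspb8*, *Atf4*, *Eif2ak3*, *Ppp1r15a* and *Trib3* and below them for *Xbp1*.

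The tissue and the libraries bear on these values. All 10 tubule genes examined were detected in every library, among them *Umod* at 1628 to 2556 FPKM and *Slc34a1* at 176 to 313. *Ptpn6* itself was at 11.8 to 14.7 FPKM in *Ptpn6*+/mev mice and 10.9 to 17.5 in wild-type mice (log2 fold change -0.19, SE 0.17, adjusted p = 0.715), and its transcript level does not show the allele. Wild-type replicate 2 stood apart: it was the highest library for 29.5% and the lowest for 30.2% of all tested genes. Its summed FPKM was 120 over 8 endothelial markers, against 270 to 316 in the other libraries, and 55.1 over 8 fibroblast markers, against 151 to 256. The median log2 fold change of the fibroblast markers was -0.08 with none at an adjusted p under 0.05, and -0.54 without this library, when *Dcn* (-0.79, adjusted p = 0.0354 in edgeR) and *Pdgfra* (-0.55, adjusted p = 0.0463) passed. The median of the endothelial markers was 0.16 with all libraries, -0.19 without wild-type replicate 2 and 0.33 without wild-type replicate 3. For the macrophage markers it was 0.15, -0.11 and 0.22 in the same order. None of either list passed the adjusted threshold in these fits. Without wild-type replicate 2, 7 of the 40 members changed the sign of their difference, *Hsf1*, *Hspa4*, *Hspa8*, *Hsp90aa1*, *Hspe1*, *Canx* and *Pdia3*. Values with 1 library left out are given below for members they moved by over 1.5 times. In whole kidney, fewer cells of a type and less RNA per cell cannot be told apart.

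The cytosolic heat shock genes showed no shared direction between the genotypes. Of 13 genes, 4 had a log2 fold change above 0 and 9 below, with a median of -0.04 against -0.00 over all tested genes. The median was -0.08 without wild-type replicate 2 and 0.01 without wild-type replicate 3. The small heat shock proteins *Hspb1* and *Hspb8* were the members higher at an unadjusted p under 0.05, and *Hspb1* had the smallest adjusted p of the 40 genes. The HSP70 gene *Hspa1b* was the only cytosolic member lower at that threshold. Of all tested genes 5.53% were higher and 6.71% lower at it. Summed over the 13 genes, FPKM was 1250 to 1315 in *Ptpn6*+/mev mice and 1016 to 1357 in wild-type mice, the 1016 being wild-type replicate 2.

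HSF1 binds heat shock elements, in which GAA and its reverse TTC alternate. The letters GAANNTTC, which read the same on both strands, were sought in RefSeq promoter windows of GRCm38.p6 running from 250 bases before to 50 bases after the start. Windows were found for 32 of the 40 genes. The letters occurred in 7 of 9 cytosolic genes, in 2 of 2 mitochondrial genes and in 1 of 21 ER stress genes (*Asns*), and in 7.86% of all 32851 windows. Their inverted form, TTCNNGAA, occurred in 1 of 9 cytosolic, 2 of 2 mitochondrial and 1 of 21 ER stress genes. It was present in 8.52% of all windows. The stretches of the 2 small heat shock genes and of the HSP70 pair are printed because the largest and the near-identical cytosolic members are among them. Each runs 5′ to 3′ on the gene's strand, with the matched letters in capitals.
Hspb1, chr5:135887791-135887820, plus strand: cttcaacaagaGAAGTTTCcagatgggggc
Hspb1, chr5:135887811-135887840, plus strand: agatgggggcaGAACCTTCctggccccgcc
Hspb8, chr5:116422844-116422873, minus strand: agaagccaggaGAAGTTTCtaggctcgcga
Hspa1a, chr17:34972242-34972271, minus strand: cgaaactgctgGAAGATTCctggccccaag
Hspa1b, chr17:34959324-34959353, minus strand: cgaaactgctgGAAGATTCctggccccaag
The 10 members with GAANNTTC had log2 fold changes from -0.29 to 0.47 with a median of -0.04, and the 718 tested genes with it had a median of -0.03. A match is a description of the letters and not a measured site.

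*Hspb1*, which encodes the small chaperone HSP27 that binds unfolding proteins and actin, spans bases 135887919 to 135889563 of chromosome 5. In replicate order it read 226, 213 and 227 FPKM in *Ptpn6*+/mev mice and 136, 139 and 184 in wild-type mice, the order kept below. Every *Ptpn6*+/mev mouse was above every wild-type mouse, and wild-type replicate 3 was the nearest. Such a separation in the higher direction was seen in 6 of the 40 genes and in 14.0% of all tested genes, on a scale where the median difference of all genes was 0.06. The means were 222 ± 7.92 and 153 ± 26.6 (SD, n = 3 each), and the difference was 0.47 on the log2 scale (SE 0.12, 95% interval 0.20 to 0.74). Its p of 0.00374 became 0.159 after adjustment in the quasi-likelihood test, 0.0464 in the exact test and 0.0326 in DESeq2, over a range of 0.0326 to 0.533 in the alternatives. Leaving out 1 library at a time gave 0.38 to 0.59. The counts of *Hspb1* were fractional, and 477 bases of its transcript are 99.8% identical to *Gm9817*, so its reads can be shared.

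*Hspb8* (chr5:116408491-116422864) encodes a small heat shock protein that works with the cochaperone BAG3 to hand misfolded proteins to autophagy. In FPKM it read 11.3, 12.4 and 11.0 in *Ptpn6*+/mev mice and 8.50, 6.95 and 9.72 in wild-type mice. The groups did not overlap, at levels far below those of *Hspb1*. With means of 11.6 ± 0.735 and 8.39 ± 1.39 (SD, n = 3 each), the log2 difference was 0.40 (SE 0.14, adjusted p = 0.315). *Bag3*, its partner, did not share this pattern, at 19.5 to 20.5 FPKM in *Ptpn6*+/mev mice and 20.1 to 25.3 in wild-type mice (log2 fold change -0.20, adjusted p = 0.495). *Hspb6*, another small heat shock protein and no member, was at 5.84 ± 0.867 against 11.4 ± 3.83 (SD, n = 3 each), which is -1.04 on the log2 scale (adjusted p = 0.183). Part of that difference came from wild-type replicate 2, at 15.8 FPKM against 9.49 and 8.87 in wild-type replicates 1 and 3.

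Markers of tubular injury were also higher in *Ptpn6*+/mev kidneys at an unadjusted p under 0.05 in 4 of 10 genes and lower in 1. Of all tested genes 5.53% were higher and 6.71% lower at that threshold. *Krt18*, a keratin of simple epithelium, was at 153 ± 26.2 against 99.6 ± 10.9 FPKM (SD, n = 3 each, log2 fold change 0.55, adjusted p = 0.196). *Havcr1*, the injury marker KIM-1, differed by 0.27 (adjusted p = 0.325) and *Vcam1*, an adhesion molecule, by 1.05 (adjusted p = 0.188), while *Spp1*, which encodes osteopontin, differed by -0.38 (adjusted p = 0.331). Among 10 genes of tubule identity 4 were lower and none higher at that threshold, with a median of -0.43, or -0.28 without wild-type replicate 2. By DESeq2 and by the exact test *Slc22a6* and *Cubn* passed the adjusted threshold among the tubule genes, and *Slc22a6*, *Cubn* and *Lrp2* did once wild-type replicate 2 was left out of the edgeR fit, as did *Slc22a6* with wild-type replicate 3 left out, all lower in *Ptpn6*+/mev kidneys. Of the injury markers *Vcam1* and *Krt18* passed in DESeq2, *Vcam1* in the exact test, and *Krt18* and *Krt20* without wild-type replicate 2, all higher. Their part in the values of *Hspb1* and *Hspb8* was not tested.

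*Hspa1a* and *Hspa1b* encode the stress-inducible HSP70 and sit side by side on chromosome 17, from 34969190 to 34972156 and from 34956436 to 34959238. Their transcripts are 99.2% identical over 2201 bases, and their promoter windows share 296 of 300 bases. *Hspa1a* was at 14.4, 14.7 and 15.9 FPKM in *Ptpn6*+/mev mice and 13.2, 14.8 and 16.1 in wild-type mice. One range lay inside the other, with a log2 fold change of -0.04 (SE 0.11, adjusted p = 0.926). *Hspa1b* was at 29.6, 26.8 and 32.2 FPKM in *Ptpn6*+/mev mice and 33.2, 29.7 and 40.6 in wild-type mice. The groups overlapped, and wild-type replicate 3 was the highest. The means of 29.6 ± 2.68 and 34.5 ± 5.57 (SD, n = 3 each) correspond to -0.29 (SE 0.12, adjusted p = 0.372), which became -0.18 without wild-type replicate 3. Since reads of near-identical copies can be split between them in ways the counts do not show, both were also counted as 1 gene, an alternative chosen after seeing the data. The sum was 123, 117 and 134 CPM (counts scaled to library size) in *Ptpn6*+/mev mice and 133, 137 and 161 in wild-type mice, a difference of -0.21 (SE 0.10, adjusted p = 0.484).

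*Hsp90ab1* (chr17:45567775-45573271), the constitutive cytosolic HSP90, was the most abundant of the 40 genes. It was at 592, 623 and 562 FPKM in *Ptpn6*+/mev mice and 588, 490 and 669 in wild-type mice. Wild-type replicates 2 and 3 marked the lowest and the highest value, and the *Ptpn6*+/mev mice lay between them. The means were 592 ± 30.7 and 582 ± 89.9 (SD, n = 3 each), with a log2 fold change of -0.04 (SE 0.10, 95% interval -0.28 to 0.19, adjusted p = 0.922). *Hsf1* (chr15:76477422-76501913), the gene of the heat shock factor itself, was at 16.4, 17.5 and 17.3 FPKM in *Ptpn6*+/mev mice and 16.9, 13.6 and 18.2 in wild-type mice. The wild-type values again enclosed the others, and the difference was 0.01 (SE 0.11, 95% interval -0.25 to 0.27, adjusted p = 0.991).

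The other 7 cytosolic members had log2 fold changes from -0.20 to 0.05 and adjusted p-values of 0.495 or more. With 1 library left out *Bag3* ranged from -0.27 to -0.11, *Hsph1* from -0.22 to -0.06, *Hspa4* from -0.12 to 0.03, *Dnajb1* from -0.18 to 0.10, *Dnaja1* from -0.08 to 0.01 and *Hspa8* from -0.08 to 0.18. *Hsph1*, the nucleotide exchange factor HSP110, was at 41.0 to 44.2 FPKM in *Ptpn6*+/mev mice and 38.7 to 52.1 in wild-type mice (-0.16). *Hspa4*, a relative of HSP110, was at 36.9 to 40.1 and 35.3 to 40.6 (-0.05). *Dnajb1*, the HSP40 that feeds clients to HSP70, was at 28.4 to 32.7 and 21.8 to 35.0 (-0.02). In each of these 3 genes the *Ptpn6*+/mev range lay inside the wild-type range. *Hspa8*, the constitutive HSC70, was at 14.2 to 20.3 FPKM in *Ptpn6*+/mev mice and 11.9 to 18.5 in wild-type mice (0.05, adjusted p = 0.943). It shares stretches of at least 300 bases at 95% identity or more with 6 other genes, so its counts are uncertain.

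**Figure D2:**
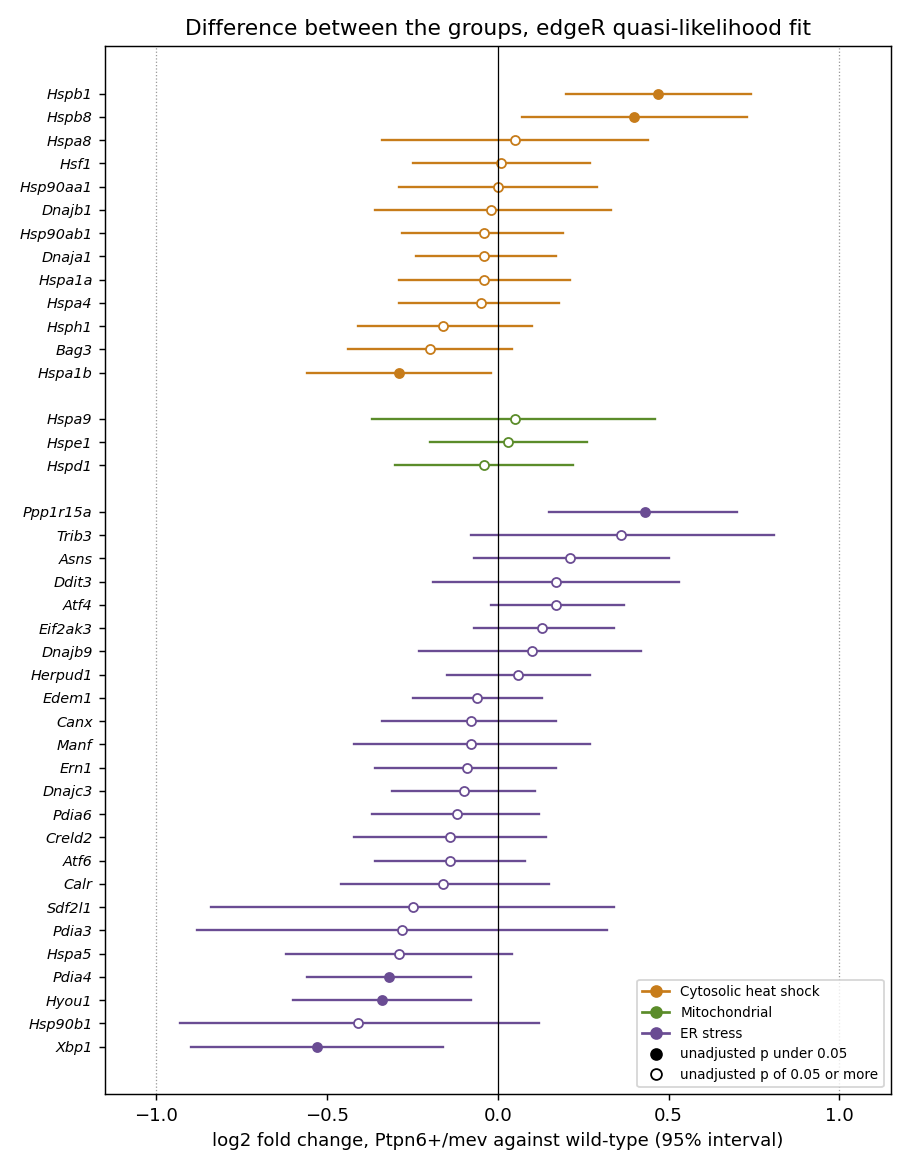
Log2 fold change of *Ptpn6*+/mev against wild-type from edgeR's quasi-likelihood fit (x axis) with its 95% interval for each of the 40 genes (y axis), coloured by class, with dotted lines at 2-fold. Every interval stays between the dotted lines, and the 7 filled points, 3 above and 4 below 0, mark an unadjusted p under 0.05.

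For *Hsp90aa1*, *Dnaja1* and *Asns* the counts and the FPKM of the same library did not move together. The ratio of the 2 measures should be nearly constant across libraries when a gene's length is fixed, and it varied by more than 1.1-fold in 7 of the 40 genes and in 29.5% of all tested genes. *Hsp90aa1*, the stress-inducible HSP90, had the widest ratio, 1.52-fold. Wild-type replicate 2 had its highest count, 4529, against 3674 to 4487 in the other libraries, and its lowest FPKM, 140, against 160 to 202. The log2 fold change was -0.00 from counts, -0.09 to 0.12 from counts with 1 library left out and 0.11 from log2(FPKM + 1). *Dnaja1*, another HSP40, varied 1.33-fold and gave -0.04 from counts and 0.27 from log2(FPKM + 1), with adjusted p-values of 0.915 in edgeR and 0.43 in limma. In *Asns* the ratio varied 1.32-fold, and the differences were 0.21 and 0.07 in the same order. *Hsp90aa1* and *Dnaja1* each have transcripts of other genes more than 99% identical to them, over 2255 bases in *Gm12346* and 1194 bases in *Gm15542*. Stretches of at least 300 bases at 95% identity or more to another gene were present in 6 of 13 cytosolic, 2 of 3 mitochondrial and 0 of 24 ER stress genes. Their part in the diverging measures was not tested, and *Asns* has no such stretch.

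**Figure D3:**
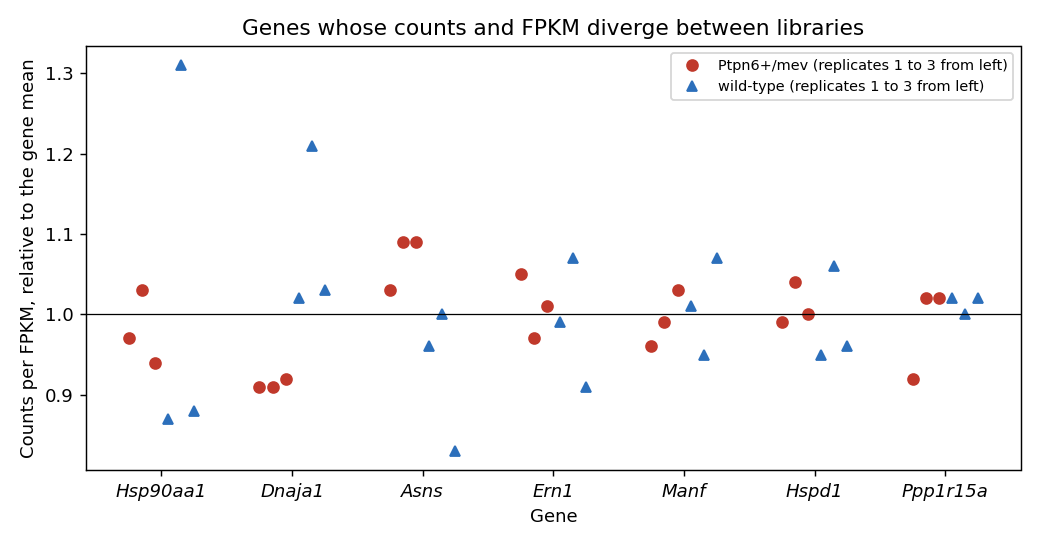
Counts divided by FPKM, relative to the gene's mean over the 6 libraries (y axis), for the 7 genes in which this ratio varied more than 1.1-fold (x axis), with *Ptpn6*+/mev mice as red circles and wild-type mice as blue triangles, replicates 1 to 3 from the left in each. Wild-type replicate 2 stands at 1.31 for *Hsp90aa1* and 1.21 for *Dnaja1*, above the other 5 libraries of each gene.

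The mitochondrial chaperones overlapped between the groups in all 3 genes, with log2 fold changes from -0.04 to 0.05. *Hspd1* (HSP60) and *Hspe1* (HSP10), the chamber and the lid of the matrix folding machine, are neighbours read in opposite directions, at chr1:55077835-55088243 and chr1:55088132-55091307. Between their RefSeq starts both windows hold the same 3 overlapping matches of GAANNTTC or its inverted form TTCNNGAA, which occurs in 8.52% of all windows, printed here because both genes hold the same stretch. It lies before the start of *Hspe1* and inside the longest GENCODE model of *Hspd1*.
Hspe1, chr1:55088053-55088082, plus strand: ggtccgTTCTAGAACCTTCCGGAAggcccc
Hspd1, chr1:55088053-55088082, minus strand: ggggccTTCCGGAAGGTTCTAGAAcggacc
*Hspd1* was at 271, 252 and 209 FPKM in *Ptpn6*+/mev mice and 247, 221 and 265 in wild-type mice. *Hspe1* was at 251, 275 and 238 in *Ptpn6*+/mev mice and 258, 204 and 252 in wild-type mice. The groups overlapped in both genes, with log2 fold changes of -0.04 (SE 0.11, adjusted p = 0.933) and 0.03 (SE 0.10, adjusted p = 0.945). *Hspa9*, the mitochondrial HSP70 mortalin, was at 214 to 262 FPKM in *Ptpn6*+/mev mice and at 185, 279 and 208 in wild-type mice. Its difference was 0.05 with all libraries and 0.28 without wild-type replicate 2 (adjusted p = 0.952 and 0.214), and with other single libraries left out it went as low as -0.09.

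None of the ER stress genes passed the adjusted threshold. Of 24 genes 8 had a log2 fold change above 0 and 16 below, with a median of -0.10 (-0.06 without wild-type replicate 2 or without *Ptpn6*+/mev replicate 1, and -0.03 with limma on log2(FPKM + 1)). The median of all tested genes was -0.00 from counts and 0.06 with that limma fit, so the 2 scales are offset. The 6 genes of the PERK and ATF4 branch were all above 0, with a median of 0.19, while 12 of 13 ER chaperones and folding genes were below 0, with a median of -0.16 (-0.09 with limma), and the genes *Atf6*, *Xbp1* and *Ern1* were below 0 as well. Without wild-type replicate 2 the 6 genes stayed above 0, and 10 of the 13 were below 0, with *Canx*, *Pdia3* and *Dnajb9* above. These groups were drawn by textbook role with the values known, so their signs are a description. Among 22 other ER chaperones and folding enzymes 11 log2 fold changes were above 0 and 11 below, with a median of -0.01. At an unadjusted p under 0.05, 1 of the 24 genes was higher (*Ppp1r15a*) and 3 were lower (*Xbp1*, *Hyou1* and *Pdia4*). Of all tested genes 5.53% were higher and 6.71% lower at that threshold.

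*Xbp1*, whose mRNA is spliced by IRE1 to make the transcription factor for ER chaperones and lipid synthesis, spans bases 5520659 to 5525893 of chromosome 11. It was at 99.0, 131 and 136 FPKM in *Ptpn6*+/mev mice and 143, 192 and 168 in wild-type mice. It was the 1 member of the 40 with every *Ptpn6*+/mev mouse below every wild-type mouse, a separation seen in 6.38% of all tested genes. The means of 122 ± 20.3 and 168 ± 24.4 (SD, n = 3 each) correspond to -0.53 on the log2 scale (SE 0.16, 95% interval -0.90 to -0.16), the lowest value of the 40. With a p of 0.0111 and an adjusted p of 0.234 (0.0763 to 0.544 in the alternatives), it kept its sign when any 1 library was left out, between -0.65 and -0.39. *Xbp1* is also high in plasma cells. Of 7 plasma and B cell markers 1 passed the filter on low counts, and their summed FPKM was 38.6 to 61.5 in *Ptpn6*+/mev mice and 33.0 to 51.3 in wild-type mice. With 1 marker past the filter this sum does not measure plasma cells, and their part in the values of *Xbp1* was not tested. Counts per gene do not separate spliced from unspliced *Xbp1*.

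The sensors themselves differed by -0.14 to 0.13. *Atf6* (chr1:170704674-170867771) was at 11.0, 10.4 and 10.7 FPKM in *Ptpn6*+/mev mice and 10.6, 11.7 and 11.2 in wild-type mice. The groups overlapped, and its difference was -0.14 (SE 0.10, 95% interval -0.36 to 0.08, adjusted p = 0.638), or -0.07 without wild-type replicate 2. *Ern1* (chr11:106394650-106487852) was at 6.35, 6.83 and 6.45 FPKM in *Ptpn6*+/mev mice and 7.74, 5.13 and 7.69 in wild-type mice. Wild-type replicate 2 was below and the other 2 wild-type mice above all 3 *Ptpn6*+/mev mice, for a difference of -0.09 (SE 0.12, adjusted p = 0.823) that was -0.19 without wild-type replicate 2 and -0.01 without wild-type replicate 1. *Eif2ak3* (chr6:70844515-70905245) was at 12.2, 11.5 and 12.7 FPKM in *Ptpn6*+/mev mice and 11.1, 9.35 and 11.3 in wild-type mice. Here the groups did not overlap, yet the difference of 0.13 had an interval that held 0 (SE 0.09, 95% interval -0.07 to 0.34, adjusted p = 0.608).

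In the PERK and ATF4 branch 4 of the 6 genes, grouped with their values known, had every *Ptpn6*+/mev mouse above every wild-type mouse in FPKM, as did 14.0% of all tested genes. *Ppp1r15a* (chr7:45522916-45526268), which encodes GADD34, the phosphatase subunit that restores translation, was at 18.6, 13.9 and 17.6 FPKM in *Ptpn6*+/mev mice and 12.2, 10.7 and 11.6 in wild-type mice. The groups were apart, with *Ptpn6*+/mev replicate 2 the nearest to the wild-type mice. Means of 16.7 ± 2.49 and 11.5 ± 0.737 (SD, n = 3 each) gave 0.43 on the log2 scale (SE 0.12, 95% interval 0.15 to 0.70, adjusted p = 0.207). Leaving out 1 library at a time gave 0.36 to 0.52.

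*Atf4* (chr15:80255184-80257541), the transcription factor of the branch, was at 125, 125 and 128 FPKM in *Ptpn6*+/mev mice and 113, 105 and 102 in wild-type mice. The groups did not overlap and the *Ptpn6*+/mev values were close together, and the means were 126 ± 1.84 and 106 ± 5.79 (SD, n = 3 each). From the counts the difference was 0.17 (SE 0.08, 95% interval -0.02 to 0.37, adjusted p = 0.451). *Trib3* (chr2:152337422-152344032), a pseudokinase induced by ATF4 and CHOP, was at 5.32, 5.98 and 5.17 FPKM in *Ptpn6*+/mev mice and 4.74, 3.05 and 4.46 in wild-type mice. It also stood apart, at 5.49 ± 0.431 against 4.08 ± 0.906 (SD, n = 3 each), with a difference of 0.36 (SE 0.19, 95% interval -0.08 to 0.81, adjusted p = 0.508) that ranged from 0.21, without wild-type replicate 2, to 0.46 with 1 library left out. *Ddit3*, which encodes the pro-apoptotic factor CHOP, was at 20.8 to 27.0 FPKM against 17.0 to 23.1 and overlapped between the groups (0.17, adjusted p = 0.728, 0.06 to 0.27 with 1 library left out). *Asns*, asparagine synthetase, was at 14.9 to 17.5 against 14.4 to 15.9 (0.21, adjusted p = 0.556).

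ATF4 and its partners bind amino acid response elements, sought here as TGATGNAA and, for the other strand, TTNCATCA. They occurred in 3 of 21 ER stress genes with a window, in 0 of 9 cytosolic and 0 of 2 mitochondrial genes and in 3.97% of all windows. The stretches of *Trib3* and *Asns*, both of the ATF4 branch, and of *Herpud1* are shown because they are the members that hold these letters, given in capitals.
Trib3, chr2:152344028-152344057, minus strand: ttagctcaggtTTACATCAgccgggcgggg
Asns, chr6:7693214-7693243, minus strand: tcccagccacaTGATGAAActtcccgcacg
Herpud1, chr8:94386306-94386335, plus strand: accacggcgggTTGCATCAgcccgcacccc
Their differences were 0.36, 0.21 and 0.06, and the 280 tested genes with the letters had a median of 0.01.

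The wider set of integrated stress response and ATF4 target genes, 30 in all, had 23 log2 fold changes above 0 and 7 below, with a median of 0.08. At an unadjusted p under 0.05, 2 of the 30 were higher, where 5.53% of all tested genes were, and 3 lower, where 6.71% were. *Phgdh*, the first enzyme of serine synthesis, was at 45.6 ± 2.26 FPKM against 28.8 ± 6.42 (SD, n = 3 each), a difference of 0.60 (SE 0.15, adjusted p = 0.155). *Chac1*, which degrades glutathione, was at 3.61 ± 0.286 against 2.33 ± 0.396 (0.56, adjusted p = 0.335). On the other side *Cth*, the cystathionine lyase, was at 49.5 ± 7.74 against 67.6 ± 9.13 (-0.52, adjusted p = 0.238), and *Shmt2*, the mitochondrial serine hydroxymethyltransferase, at 37.1 ± 5.25 against 46.4 ± 1.89 (-0.39, adjusted p = 0.224). The median of the list was 0.01 without wild-type replicate 2 and 0.15 without wild-type replicate 3.

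**Figure D4:**
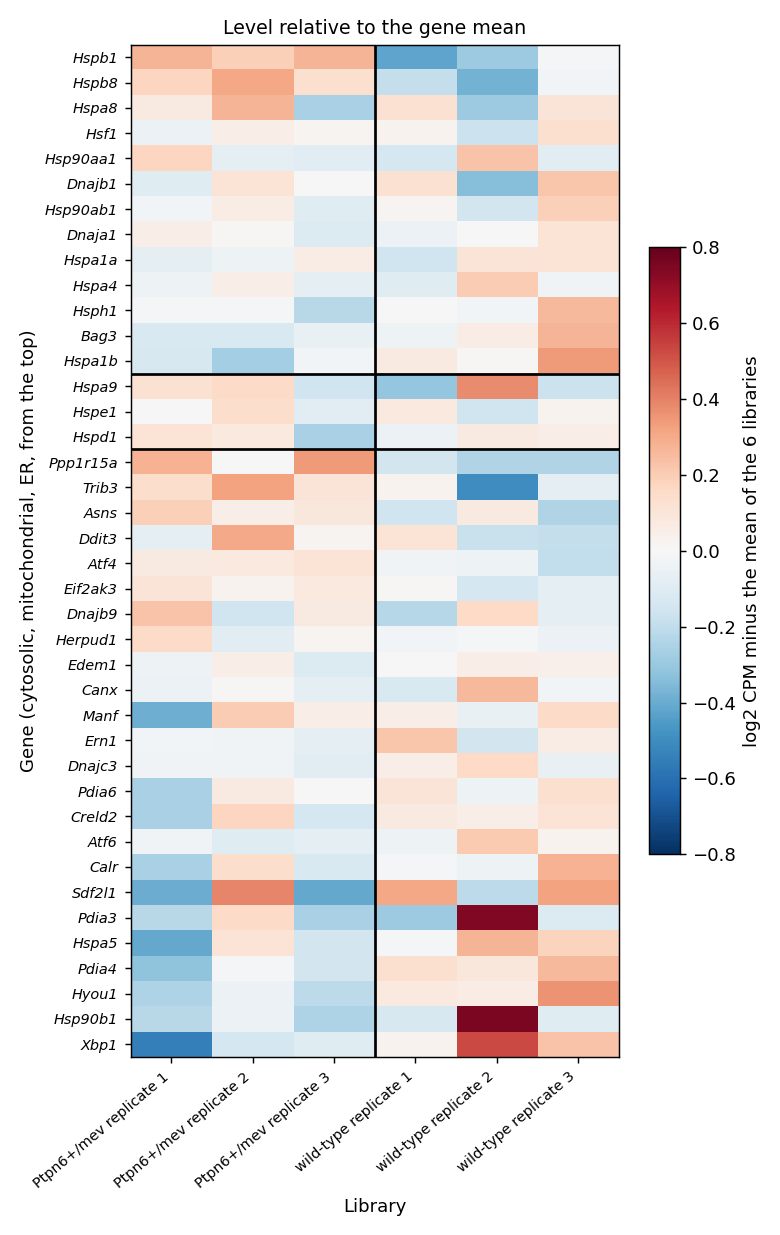
Log2 CPM of each gene (rows, ordered by fold change within the cytosolic, mitochondrial and ER classes) minus its mean over the 6 libraries (columns), red above and blue below the mean. The rows from *Ppp1r15a* to *Eif2ak3* are redder on average in *Ptpn6*+/mev libraries, and wild-type replicate 2 holds the strongest red, at 0.75 for *Hsp90b1* and 0.74 for *Pdia3*.

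Of the 13 ER chaperones and folding enzymes, 2 were lower at an unadjusted p under 0.05, *Hyou1* and *Pdia4*, as were 6.71% of all tested genes. The summed FPKM of the 13 was 929 to 1181 in *Ptpn6*+/mev mice and 1067 to 1211 in wild-type mice, and none of them separated the groups. *Hyou1* (chr9:44379490-44392369), the large ER chaperone GRP170, was at 31.8, 36.0 and 31.6 FPKM in *Ptpn6*+/mev mice and 37.8, 34.8 and 48.5 in wild-type mice. *Ptpn6*+/mev replicate 2 was above wild-type replicate 2, and wild-type replicate 3 was far above the others. The means of 33.1 ± 2.52 and 40.4 ± 7.22 (SD, n = 3 each) correspond to -0.34 (SE 0.11, adjusted p = 0.27). *Pdia4* (chr6:47796141-47813430), a disulfide isomerase, was at 49.1, 60.4 and 55.3 FPKM in *Ptpn6*+/mev mice and 64.9, 59.0 and 72.3 in wild-type mice. The groups overlapped only through replicate 2 of each, at means of 54.9 ± 5.69 and 65.4 ± 6.64 (SD, n = 3 each) and a difference of -0.32 (SE 0.10, adjusted p = 0.27). For both genes the 6 fits with 1 library left out ran from -0.40 to -0.24.

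*Calr* (chr8:84841850-84846934), the calcium-binding lectin chaperone calreticulin, was the most abundant ER member, at 285, 374 and 315 FPKM in *Ptpn6*+/mev mice and 328, 301 and 407 in wild-type mice. The ranges overlapped widely, with a difference of -0.16 (SE 0.13, 95% interval -0.46 to 0.15, adjusted p = 0.707) that was -0.05 without wild-type replicate 3, -0.07 without *Ptpn6*+/mev replicate 1 and -0.27 without *Ptpn6*+/mev replicate 2. *Pdia6* (chr12:17266545-17284770), another disulfide isomerase, was at 131, 164 and 157 FPKM in *Ptpn6*+/mev mice and 163, 138 and 169 in wild-type mice. It differed by -0.12 (SE 0.11, adjusted p = 0.715), again with overlapping groups, and by -0.03 without *Ptpn6*+/mev replicate 1 and -0.19 without *Ptpn6*+/mev replicate 2. *Hspa5*, the master ER chaperone BiP and the usual readout of ER stress, was at 94.4, 136 and 114 FPKM in *Ptpn6*+/mev mice and 117, 139 and 138 in wild-type mice. *Ptpn6*+/mev replicate 1 was the lowest, and the difference was -0.29 (SE 0.14, 95% interval -0.62 to 0.04, adjusted p = 0.467). With 1 library left out it ranged from -0.43 to -0.17.

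*Hsp90b1*, the ER form of HSP90, took its difference from 1 library. It was at 38.7, 43.2 and 38.2 FPKM in *Ptpn6*+/mev mice and 39.8, 69.0 and 41.4 in wild-type mice. Wild-type replicate 2 was far above the other 5 mice, which lay close together, and the difference of -0.41 (SE 0.23, adjusted p = 0.548) was -0.06 without it (adjusted p = 0.772). The lowest value with another library left out was -0.57. *Pdia3*, the partner of calreticulin, showed the same, at 62.7, 81.0 and 61.5 FPKM in *Ptpn6*+/mev mice and 58.1, 111 and 66.6 in wild-type mice. Its difference was -0.28 with wild-type replicate 2 and 0.09 without it (adjusted p = 0.735 and 0.757), and with 1 library left out it went as low as -0.48. *Xbp1* and *Hspa9* too were highest in that library.

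ATF6 and XBP1 act through the ER stress response element, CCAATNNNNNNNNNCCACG, or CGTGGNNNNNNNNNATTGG on the other strand. It occurred in 39 of the 32851 windows, 0.119%, and in 7 of the 21 ER stress genes with a window (*Hspa5*, *Calr*, *Hsp90b1*, *Canx*, *Pdia6*, *Dnajc3* and *Creld2*), but in 0 of 9 cytosolic genes. The stretches of the 4 abundant chaperones described above are shown, with the whole element in capitals.
Hspa5, chr2:34772019-34772048, plus strand: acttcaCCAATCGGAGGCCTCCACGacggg
Calr, chr8:84847070-84847099, minus strand: acaacgCGTGGTCGACCCTCATTGGcccat
Hsp90b1, chr10:86705633-86705662, minus strand: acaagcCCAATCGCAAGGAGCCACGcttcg
Hsp90b1, chr10:86705528-86705557, minus strand: agagtgCGTGGTGAGGCACGATTGGtgagt
Pdia6, chr12:17266485-17266514, plus strand: cagagaCCAATGAAAGGCGGCCACGgcgtg
The 7 members had differences from -0.41 to -0.08, with a median of -0.14 and none at an unadjusted p under 0.05. The 17 tested genes that hold the element, these 7 among them, had a median of -0.10.

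The remaining ER members gave small differences. *Canx*, the membrane-bound relative of calreticulin, was at 79.6 to 83.1 FPKM in *Ptpn6*+/mev mice and 74.0 to 89.9 in wild-type mice (-0.08). *Sdf2l1*, a cofactor of BiP, varied most from mouse to mouse, at 13.1, 22.8 and 13.1 FPKM in *Ptpn6*+/mev mice and 21.0, 13.6 and 21.4 in wild-type mice (-0.25, SE 0.26, adjusted p = 0.765). The BiP cochaperones *Dnajc3* and *Dnajb9* differed by -0.10 and 0.10. *Creld2* and *Manf*, both secreted from stressed ER, differed by -0.14 and -0.08. *Herpud1* and *Edem1*, which act in ER-associated degradation of misfolded proteins, differed by 0.06 and -0.06. Adjusted p-values of these 7 genes besides *Sdf2l1* were between 0.721 and 0.9. With 1 library left out *Canx* ranged from -0.17 to 0.03, *Sdf2l1* from -0.57 to -0.11, *Dnajb9* from 0.00 to 0.20, *Creld2* from -0.27 to -0.05, *Manf* from -0.20 to 0.08, *Dnajc3* from -0.15 to -0.05, *Edem1* from -0.10 to -0.02 and *Herpud1* from -0.01 to 0.12.

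Outside the 40 genes, 125 further genes of the same pathways were tested, and none passed the adjusted threshold in edgeR's quasi-likelihood test. At an unadjusted p under 0.05, 6 were higher, where 5.53% of all tested genes were, and 10 lower, where 6.71% were. Their median was 0.02. DESeq2 called 4 of them, *Hspb6*, *Trap1*, *Spg7* and *Phgdh*, and the exact test called *Hspb6* and *Phgdh*. Over all genes each of them tested, DESeq2 called 2.86% and the exact test 2.99%. Of 36 other cytosolic chaperones and cochaperones 1 was lower, the *Hspb6* given above. Of 12 other mitochondrial chaperones and proteases 2 were lower: *Trap1*, the mitochondrial HSP90, at 101 ± 8.14 against 125 ± 3.39 FPKM (SD, n = 3 each, -0.39, adjusted p = 0.154), and the protease *Spg7* at 41.5 ± 1.62 against 49.5 ± 4.64 (-0.37, adjusted p = 0.154).

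Among the 22 other ER folding genes, evenly split in sign, 1 was higher and 3 lower at that threshold. Of all tested genes 5.53% were higher and 6.71% lower at it. *Erp29*, a thioredoxin-like chaperone, was at 129 ± 3.09 against 106 ± 3.12 FPKM (SD, n = 3 each, 0.20, adjusted p = 0.344). *Sil1*, the exchange factor of BiP, differed by -0.36 (adjusted p = 0.298), *Ganab*, the glucosidase that trims glycans, by -0.26 (adjusted p = 0.287) and the prolyl isomerase *Fkbp11* by -0.50 (adjusted p = 0.358). In ER-associated degradation 2 of 15 genes were higher, the ubiquitin-conjugating enzymes *Ube2g2* (0.22, adjusted p = 0.353) and *Ube2j1* (0.23, adjusted p = 0.37). Of 10 other sensors and processing proteases *Creb3*, a membrane-bound transcription factor, was higher at 44.4 ± 2.04 against 33.6 ± 4.26 (0.32, adjusted p = 0.273), and *Tmbim6*, a calcium-leak protein of the ER, was lower at 569 ± 14.9 against 621 ± 31.3 (-0.18, adjusted p = 0.362).

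The 7 members with an unadjusted p under 0.05 kept the sign of their difference in all 15 alternatives run beside the quasi-likelihood fit. They were picked by that p and the alternatives reuse the same libraries, so the kept sign is a description and no separate support.

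**Figure D5:**
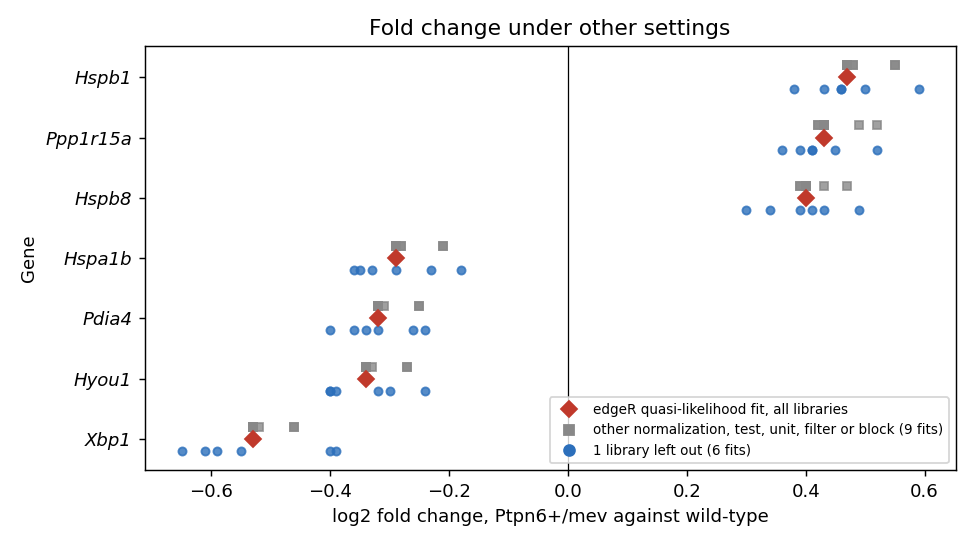
Log2 fold change of *Ptpn6*+/mev against wild-type (x axis) for the 7 members with an unadjusted p under 0.05 (y axis), in the quasi-likelihood fit (red diamonds), 9 other normalizations, tests, units, filters or a block (grey squares) and 6 fits with 1 library left out (blue circles). No point crosses 0, and *Xbp1* has the widest spread with 1 library left out, from -0.65 to -0.39.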

How the data were processed

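Left kidneys of 3 *Ptpn6*+/mev and 3 wild-type mice were sequenced as poly-A mRNA. Per the labels and the study's methods, the authors aligned reads with TopHat to GRCm38.p5 and ran Cufflinks. RSEM and Bowtie2 also stand in the submitters' processing notes, and the tool behind the counts is not given in the sources used here. The authors deposited 1 table of estimated counts and FPKM values (fragments scaled by the authors to transcript length and library size) per library. Counts were fractional in 1744 genes, 4 of the 40 members among them, and were rounded.

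The test was the quasi-likelihood one of edgeR 4.0.16 (R 4.3.3) on counts (TMM, filterByExpr by group, F-test, Benjamini-Hochberg adjustment over 13036 genes). Standard errors and 95% intervals come from that test. The 15 alternatives were the exact test of edgeR, the Wald test of DESeq2 1.42.0, 2 other normalizations, 2 other filters, limma 3.58.1 on log2(FPKM + 1) and log2(FPKM + 0.1), a block on the replicate number, and the omission of each library in turn. Fold changes on FPKM understate low genes. The fits were checked on simulated data. Libraries of a group differed by more than counting noise (chi-square per degree of freedom 6.3 to 43.5). Gene positions are those of GENCODE M21 (GRCm38). Motifs were matched and transcripts compared in Python 3.11.15 and blastn.

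The members and lists were chosen with earlier results of these data known. Values per library are given for members with an unadjusted p under 0.05 or groups apart in FPKM, the 2 most abundant of each class, *Hspa1a*, *Hspa1b* and the regulators *Hsf1*, *Atf4*, *Atf6*, *Xbp1*, *Ern1* and *Eif2ak3*. For other members values are given by range, or per library where 1 library sets the result. Of other pathway genes at most 4 per list with an unadjusted p under 0.05 are named, smallest p first.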

Additional observations from a re-analysis of the deposited data

How the results depend on the processing

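No member was called in 13 of the 15 alternatives, and the edgeR exact test and DESeq2 each called 1 cytosolic member, *Hspb1*, both at a log2 fold change of 0.47. Of the other pathway genes DESeq2 called 4 and the exact test 2. Of all genes tested, 18 were called, against 382 of 13362 genes with DESeq2, 390 with the exact test and 52 with no filter. With 1 library left out the count ran from 1 to 237: 4, 11 and 1 without *Ptpn6*+/mev replicate 1, 2 or 3, and 10, 237 and 67 without wild-type replicate 1, 2 or 3. The cause was not tested. Same-numbered libraries did not deviate together (correlations -0.14, -0.18 and -0.13). With 3 libraries per group, whose deviations sum to 0, these correlations cannot show whether the numbers pair the mice. With the replicate number as a block 1 gene was called, and no member.

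The median of the cytosolic members was -0.04 and became 0.07 with limma on log2(FPKM + 0.1), a scale on which the median of all genes was 0.06 at a pseudocount of 1. The 19 members that met the criteria above for values per library gave 285 values under alternatives. Of these values 272 kept direction and side of the threshold and 11 changed sign. Other members printed per library, such as *Pdia3*, were not among the 19. Over all 40 members, 15 changed sign with some library left out, from differences of up to 0.28 in size (*Pdia3*), and 7 with limma at a pseudocount of 1. With limma at either pseudocount *Hsp90ab1* gave 0.04 and *Hspa1a* 0.03. With 1 library left out *Hsf1* ranged from -0.08 to 0.07, *Hsp90ab1* from -0.13 to 0.05, *Hspa1a* from -0.13 to 0.01, *Hspd1* from -0.11 to 0.07 and *Hspe1* from -0.05 to 0.08.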

Other observations

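Genes that respond to temperature and to handling of tissue were also compared. The cold-inducible RNA-binding proteins *Cirbp* and *Rbm3* had log2 fold changes between -0.04 and 0.14, with summed FPKM of 345 to 400 in *Ptpn6*+/mev mice and 262 to 351 in wild-type mice. Their median was 0.05, 0.20 without wild-type replicate 2 and -0.08 without wild-type replicate 3. Of 11 immediate early genes none passed an unadjusted p under 0.05 in edgeR's quasi-likelihood test, 9 had a log2 fold change above 0, and the median was 0.08, or 0.15 without wild-type replicate 3.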
